A study of Mus musculus with 6 samples.

Results

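The genes described here are 9 genes of the imprinted cluster at the distal end of mouse chromosome 7: H19, Igf2, Kcnq1ot1, Kcnq1, Phlda2, Nap1l4, Cd81, Slc22a18 and Tssc4. They were taken by name, without Cdkn1c, the gene in their midst, and are 9 of 30349 genes listed. RNA had been sequenced from 6 cultures of primary epidermal keratinocytes of mice at postnatal day 2, 3 wild type (replicates 13, 14 and 15) and 3 of the genotype labelled p63 alphaKO (replicates 9, 10 and 11). All cultures were confluent after 5 to 6 days in medium with 0.05 mM calcium, EGF at 2.5 ng/mL and chelated fetal bovine serum at 4%. What p63 alphaKO removes from Trp63, the gene of the epidermal transcription factor p63, is not stated in the labels. Separate animals are not stated either, so p-values measure the spread between these libraries, which may be technical.

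An imprinted gene is read from the chromosome of one parent only. In this cluster a pair of control regions sets the pattern. At the first, the maternal chromosome makes H19, a long noncoding RNA, and the paternal chromosome makes Igf2, a fetal growth factor. At the other, inside Kcnq1, the paternal chromosome makes the long noncoding RNA Kcnq1ot1, which keeps Cdkn1c, Phlda2, Slc22a18 and Kcnq1 silent on that chromosome, so these are read from the maternal one. Cd81, Tssc4 and Nap1l4 lie farther out, and their imprinting is known mainly from the placenta. Cdkn1c encodes p57, an inhibitor of the cell cycle. The assay, 3' digital gene expression, sums both parental chromosomes, so it measures a level and no imprinting state.

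The libraries held 1699716 to 3215333 reads, and levels are in CPM, reads per 1000000 reads of a library. Since 3 reads are worth 0.93 to 1.76 CPM depending on the library, a gene listed at 0 can be as high as that. In the wild type libraries the 9 genes summed to 624.94, 587.84 and 591.15 CPM, and in the p63 alphaKO libraries to 644.80, 671.16 and 572.49 CPM. The 10 keratinocyte markers looked up, Krt5 and Krt14 among them, were read in all libraries and summed to 29274 to 40843 CPM. Endothelial markers summed to at most 5.29 CPM and immune markers to at most 0.91 CPM. Wild type replicate 15 held the most muscle marker reads and p63 alphaKO replicate 11 the fewest reads in all, and several values below are also given without one of them.

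None of the 9 genes passed the test between the groups, and Cdkn1c in their midst rose in p63 alphaKO. Of the 9, 8 reached the mean of 1 CPM required for testing, and Kcnq1 did not. Over those 8, limma called 0 at an adjusted p under 0.05, where 0.0427% of all 11716 genes tested were called (5 genes). No gene of the 8 had an unadjusted p under 0.05 (6.36% of all genes did), and edgeR and DESeq2 called 0 of the 8. The wild type and p63 alphaKO libraries overlapped for each of the 8, while they did not overlap for 11.5% of all genes tested. Of the log2 fold changes, p63 alphaKO minus wild type on log2(CPM + 1), 5 were above 0 and 3 below, with a median of 0.07, and over all genes 50.7% were above 0 with a median of 0.01. How wide the tested range was differed between genes: for Phlda2, Nap1l4, Cd81 and Tssc4 the 95% interval of the fold change lay inside a 2-fold change either way, and for H19, Igf2, Kcnq1ot1 and Slc22a18 it did not.

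**Figure D1:**
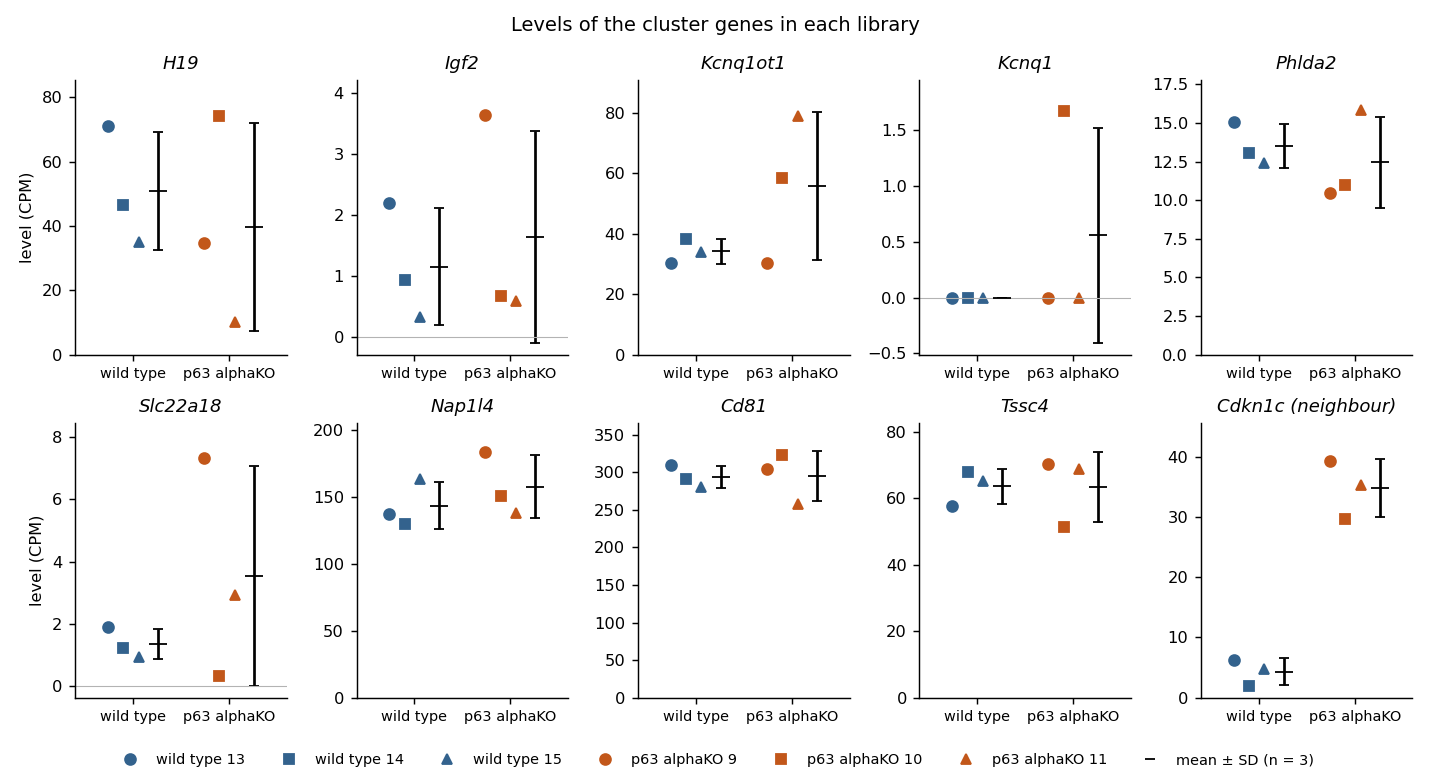
Level in CPM on the vertical axis (each panel with its own linear scale) of the 9 cluster genes and of Cdkn1c in the 3 wild type and 3 p63 alphaKO libraries, with 1 symbol per library and the mean ± SD (n = 3) beside each group. The groups overlap in every panel but that of Cdkn1c, and H19 in p63 alphaKO reaches from 9.99 to 74.31 CPM.

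H19 is the maternally read noncoding RNA of the first control region, abundant in the embryo and turned down after birth. It lies on chromosome 7 from 142575529 to 142578143, minus strand, in GRCm38 (mm10), as do all coordinates here, and its annotated exons hold the precursor of miR-675. The mature arms are shown because they are the conserved product of this RNA, with the seed (bases 2 to 8) in capitals, from RefSeq (GRCm38.p6):
mmu-miR-675-5p: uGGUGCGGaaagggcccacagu
mmu-miR-675-3p: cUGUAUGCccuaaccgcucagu
These arms were not measured by the assay, and what follows is the host RNA.

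H19 was at 71.01, 46.63 and 34.94 CPM in cultures 13, 14 and 15 of wild type (226, 150 and 110 reads). In p63 alphaKO replicates 9, 10 and 11 it was at 34.71, 74.31 and 9.99 CPM (76, 223 and 17 reads). The p63 alphaKO libraries held both the highest and the lowest level of the 6, 7.44-fold apart. The means were 50.9 ± 18.4 CPM (SD, n = 3) in wild type, compared with 39.7 ± 32.4 CPM (SD, n = 3) in p63 alphaKO. The log2 fold change was -0.69 (SE 0.49, 95% interval -1.71 to 0.34, limma adjusted p = 0.885). Its sign rested on p63 alphaKO replicate 11: without that library the log2 fold change was 0.06 (limma adjusted p = 0.978), and without p63 alphaKO replicate 10 it was -1.33 (0.452). With wild type replicate 15 and p63 alphaKO replicate 11 both left out it was -0.18 (0.898). On the recovered reads it was -0.35 by edgeR and -0.36 by DESeq2 (adjusted p = 0.971 and 0.999).

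The spread of H19 between libraries of the same group was large for its level. Its SD of log2 values within groups was 1.05, larger than that of 99.6% of the 4321 tested genes with a mean of 20 to 100 CPM, whose median was 0.33. Markers of other cell types moved with it across the libraries. The 10 fibroblast markers had sums of 50.3, 33.3 and 19.1 CPM in wild type cultures, compared with 17.8, 47.0 and 5.88 CPM in p63 alphaKO cultures. Of these markers, which include the collagens Col1a1, Col1a2 and Col3a1, Lum was listed at 0 in every library and 7 were tested, none of them called. The 12 melanocyte markers, such as Dct and Pmel, summed to 840, 767 and 317 CPM in wild type, compared with 560, 1040 and 243 CPM in p63 alphaKO. Replicate 13 within wild type, and replicate 10 within p63 alphaKO, was thus highest for H19 and for both lists, and p63 alphaKO replicate 11 was the lowest of all 6 libraries. Of the melanocyte markers 11 were tested and 0 called, 0 also at an unadjusted p under 0.05 and by edgeR and DESeq2. The same counts of 0 hold for the 7 fibroblast markers. Over all genes in the fit of all 6 libraries, limma called 0.0427%, and 6.36% had an unadjusted p under 0.05. Without p63 alphaKO replicate 11 the median log2 fold change moved from -0.23 to 0.22 over the melanocyte markers and from -0.61 to -0.20 over the fibroblast markers. Without wild type replicate 15 these medians were -0.49 and -0.85, with 0 called and 1 and 2 markers at an unadjusted p under 0.05. The 10 muscle markers did not follow H19. They were at 108.1, 110.7 and 797 CPM in wild type cultures, compared with 36.1, 44.0 and 111.1 CPM in p63 alphaKO. Myh3 and Myh8 were listed at 0 throughout. Of the 8 muscle markers tested 0 were called by limma, edgeR or DESeq2 (7 at an unadjusted p under 0.05, beside 6.36% of all genes). Their median log2 fold change was -2.47, and -1.43 without wild type replicate 15, with 7 tested, 0 called and 3 at an unadjusted p under 0.05. Limma called 1 of the 8 with p63 alphaKO replicate 11 left out, a fit in which it called 13 genes in all. The part of these cell types in the level of H19 was not tested. In such bulk samples fewer cells of a type and less RNA per cell cannot be told apart.

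**Figure D2:**
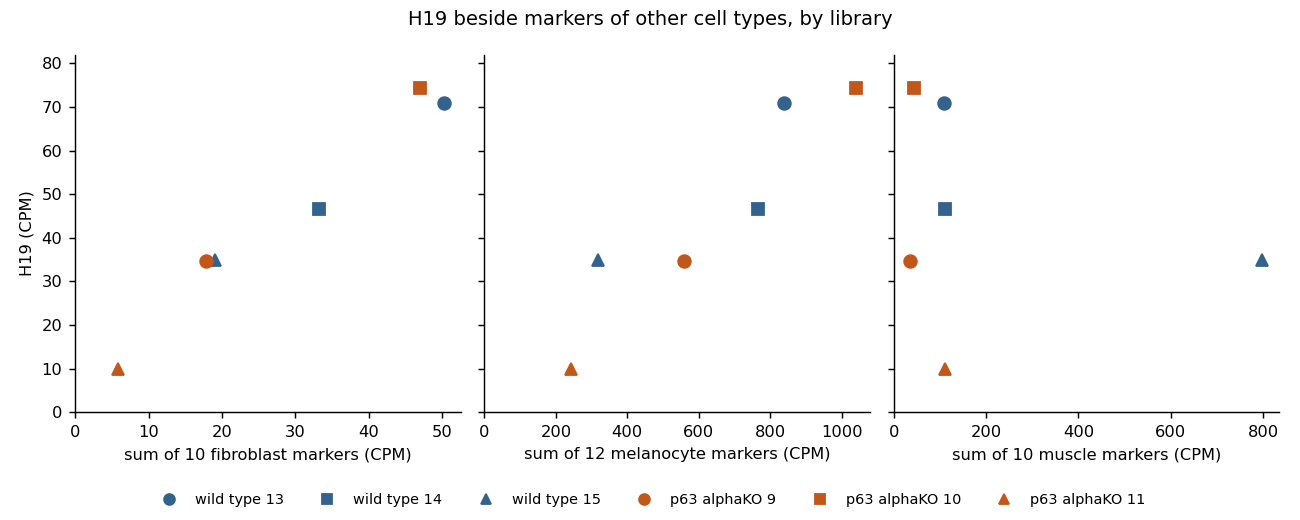
H19 level in CPM (vertical axis) against the summed CPM of 10 fibroblast, 12 melanocyte and 10 muscle markers (horizontal axes), with 1 symbol per library. Wild type replicate 13 and p63 alphaKO replicate 10 lie at the upper right and p63 alphaKO replicate 11 at the lower left for fibroblast and melanocyte markers, and for muscle markers wild type replicate 15 stands alone at 797 CPM.

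The genes most like H19 over the 6 libraries were described as well. Among 9441 other genes averaging 5 CPM or more, log2(CPM + 1) of Cpd, encoding carboxypeptidase D, had the highest Pearson correlation with that of H19 (0.99), followed by Mgll, encoding monoacylglycerol lipase (0.99), and Pdlim5 (0.99). Mgll was at 74.47, 49.74 and 29.22 CPM in wild type cultures, compared with 37.90, 78.98 and 5.88 CPM in p63 alphaKO. These are likenesses picked from many genes over 6 libraries, which also differ in depth and in the marker sums above, and no test was made.

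Igf2, the growth factor gene next to H19 that is read from the paternal chromosome, was close to the limit of detection. It lies from 142650766 to 142666816, minus strand. It had 7, 3 and 1 reads in wild type replicates 13, 14 and 15 (2.20, 0.93 and 0.32 CPM). In p63 alphaKO replicates 9, 10 and 11 it had 8, 2 and 1 reads (3.65, 0.67 and 0.59 CPM). Each group came to 11 reads in all, and the ratio of the pooled read rates, p63 alphaKO over wild type, was 1.39 (exact 95% interval 0.545 to 3.52, counting error alone). On the log2 scale the difference was 0.20 (SE 0.65, 95% interval -1.17 to 1.57, limma adjusted p = 0.993), and on the recovered reads it was 0.47 by edgeR and 0.51 by DESeq2. Its exons share 3596 bases on the same strand with a second annotated gene model, Gm49394, and how reads there were assigned is unknown here. The wild type library highest for Igf2 was also highest for H19 (replicate 13), whereas in p63 alphaKO replicate 9 led for Igf2 and replicate 10 for H19. Igf2os, the antisense transcript, and Ins2, the next gene along, were listed at 0 in all libraries.

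Kcnq1ot1 was the gene of the 9 with the smallest p. This noncoding RNA is annotated as 1 unspliced exon of 93.1 kb (143203458 to 143296549, minus strand) inside Kcnq1, on the opposite strand. If counting ignored strand, unspliced Kcnq1 reads there could count for it. It was at 30.16, 38.24 and 33.99 CPM in cultures 13, 14 and 15 of wild type (96, 123 and 107 reads). In p63 alphaKO replicates 9, 10 and 11 it was at 30.14, 58.32 and 78.76 CPM (66, 175 and 134 reads). Replicates 10 and 11 thus lay above every wild type library, and replicate 9 lay just below the lowest of them. Its SD of log2 values within groups was 0.50, and 84.4% of genes at 20 to 100 CPM had a smaller one. The means were 34.1 ± 4.04 CPM (SD, n = 3) and 55.7 ± 24.4 CPM (SD, n = 3). The log2 fold change was 0.59 (SE 0.32, 95% interval -0.08 to 1.27), with an unadjusted p of 0.0808 and an adjusted p of 0.807 by limma. Without p63 alphaKO replicate 11 it was 0.30 (limma adjusted p = 0.848), and without replicate 9 it was 0.98 (0.782). Kcnq1ot1 is needed for the paternal silencing of Cdkn1c, so both were set against each other within each library. Cdkn1c was at 6.28, 1.87 and 4.76 CPM in wild type cultures, compared with 39.27, 29.66 and 35.27 CPM in p63 alphaKO. The ratio of Cdkn1c to Kcnq1ot1 was 0.208, 0.0489 and 0.140 in wild type replicates 13, 14 and 15. It was 1.30, 0.509 and 0.448 in p63 alphaKO replicates 9, 10 and 11. The groups did not overlap for this ratio (exact two-sided permutation test, p = 0.1, the smallest p that 3 against 3 allows). Adjusted over the 10 ratios computed it was 0.143. Cdkn1c alone kept the groups apart, as did 11.5% of all genes tested. It had been named from earlier results of these data, so the separation describes that choice and not a link to Kcnq1ot1.

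The transcript starts of Kcnq1ot1 and of Phlda2 are shown as the noncoding RNA that varied between p63 alphaKO libraries and a coding gene of the same domain that did so less. Each is the 250 bases before the RefSeq start (GRCm38.p6), on the strand of the gene, with the motifs CCAAT and TATAAA, searched on both strands, in capitals. Kcnq1ot1 is read from chr7:143296548-143296797 and Phlda2 from chr7:143502525-143502774, both minus strand. RefSeq starts can differ from the GENCODE starts used for positions here. The Phlda2 window thus lies inside the GENCODE interval of the gene (143501545 to 143503150).
Kcnq1ot1: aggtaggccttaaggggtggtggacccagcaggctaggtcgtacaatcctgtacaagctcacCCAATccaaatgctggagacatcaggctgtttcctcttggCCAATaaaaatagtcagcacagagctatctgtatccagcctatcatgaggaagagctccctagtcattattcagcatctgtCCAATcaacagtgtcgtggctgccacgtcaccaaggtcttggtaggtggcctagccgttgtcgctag
Phlda2: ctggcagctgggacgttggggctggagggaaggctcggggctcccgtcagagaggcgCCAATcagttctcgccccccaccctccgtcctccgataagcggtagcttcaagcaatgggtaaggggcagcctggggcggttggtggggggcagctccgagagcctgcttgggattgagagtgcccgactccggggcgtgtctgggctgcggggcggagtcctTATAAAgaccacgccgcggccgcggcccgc
The Kcnq1ot1 window held 3 CCAAT matches, beginning 188, 148 and 67 bases before the start, and no TATAAA. At least 3 CCAAT matches were found in 2.79% of 32851 windows of that length over all genes, and at least 1 in 33.8%. The Phlda2 window held 1 CCAAT match and 1 TATAAA match 30 bases before the start, and TATAAA was in 12.4% of all windows. The motifs did not overlap each other. Windows of 6 of the 9 genes were used, and those of H19, Kcnq1 and Nap1l4 were not analysed here. The windows held 21 CpG pairs for Phlda2, 17 for Tssc4, 16 for Cd81, 5 for Kcnq1ot1, 0 for Slc22a18 and 1 to 22 for the 4 starts of Igf2, and the median over all windows was 6. Such matches describe the letters and do not show a bound site.

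Kcnq1, which encodes a voltage-gated potassium channel subunit of heart and inner ear, was barely read. It spans 320.7 kb (143106362 to 143427042, plus strand). It was listed at 0 in all wild type libraries and in p63 alphaKO replicates 9 and 11, and had 5 reads in p63 alphaKO replicate 10 (1.67 CPM). It was not tested, since its mean of 0.278 CPM is under the filter. The annotated exons of Kcnq1 and Kcnq1ot1 share 121 bases on opposite strands. The rest of the Kcnq1ot1 exon also lies inside Kcnq1. Whether strand was used in counting is not given in the sources used here, so spliced reads in the 121 bases and unspliced Kcnq1 reads along Kcnq1ot1 cannot be told apart from Kcnq1ot1.

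Phlda2 and Slc22a18 are, with Cdkn1c, the maternally read genes on the far side of Kcnq1ot1. Phlda2 encodes a small protein with a pleckstrin homology domain that restrains growth of the placenta. It lies 42.1 kb from Cdkn1c (143501545 to 143503150, minus strand). It was at 15.08, 13.06 and 12.39 CPM in wild type cultures, compared with 10.50, 11.00 and 15.87 CPM in p63 alphaKO replicates 9, 10 and 11. Replicate 11 was the highest of all 6 libraries and replicates 9 and 10 the lowest, so the groups overlapped. On the log2 scale the difference was -0.13 (SE 0.34, limma adjusted p = 0.993), and its 95% interval of -0.85 to 0.60 corresponds to a fold of 0.556 to 1.51. Within groups its SD of log2 values was 0.24, and 8.83% of the 3274 genes with a mean of 5 to 20 CPM had a smaller one.

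Slc22a18, which encodes a membrane transporter of the organic cation family, starts 12.7 kb from Cdkn1c, the nearest of the 9 (143473736 to 143499334, plus strand). It had 6, 4 and 3 reads in wild type cultures (1.89, 1.24 and 0.95 CPM). In p63 alphaKO replicates 9, 10 and 11 it had 16, 1 and 5 reads (7.31, 0.33 and 2.94 CPM). The p63 alphaKO libraries thus held the highest and the lowest level. The log2 fold change was 0.60 (SE 0.65, 95% interval -0.77 to 1.96, limma adjusted p = 0.930). Without p63 alphaKO replicate 9 it was -0.02 (limma adjusted p = 0.999), and on the recovered reads of all 6 libraries it was 1.30 by edgeR and 1.35 by DESeq2. The genes most like it over the 6 libraries were Snrpa, Hexim1 and Vapb (Pearson correlation 0.99, 0.98 and 0.96), which with so few reads of Slc22a18 is a description only.

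Nap1l4, Cd81 and Tssc4 had the smallest spread between libraries of the 8 genes tested. Nap1l4, a histone chaperone gene 88.1 kb beyond Cdkn1c (143513579 to 143549106, minus strand), was at 136.99, 129.63 and 163.27 CPM in wild type cultures, compared with 183.58, 150.63 and 138.13 CPM in p63 alphaKO. Its highest library was p63 alphaKO replicate 9, and the other p63 alphaKO libraries lay among the wild type ones. On the log2 scale the difference was 0.13 (SE 0.22, 95% interval -0.34 to 0.60, limma adjusted p = 0.977). Cd81, encoding a tetraspanin of the cell surface (143052739 to 143067934, plus strand), was at 309.80, 290.34 and 280.17 CPM in wild type cultures, compared with 304.59, 322.91 and 257.44 CPM in p63 alphaKO. The lowest and the highest library were 1.25-fold apart, and both were p63 alphaKO. The log2 fold change was 0.002 (SE 0.21, limma adjusted p = 0.999), with a 95% interval of a fold of 0.738 to 1.36. The sign of so small a value turned with the processing, also under TMM scaling (-0.02). Tssc4, encoding a protein that takes part in assembly of the spliceosome (143069249 to 143071093, plus strand), was at 57.81, 67.77 and 65.12 CPM in wild type cultures, compared with 70.32, 51.32 and 68.77 CPM in p63 alphaKO. The lowest and the highest of the 6 libraries were p63 alphaKO replicates 10 and 9. On the log2 scale the difference was -0.01 (SE 0.25, 95% interval -0.53 to 0.51, limma adjusted p = 0.997). Tssc4 lies within Trpm5 and shares 220 exonic bases with it on the opposite strand, and Trpm5 was listed at 0 in every library. The SD of log2 values within groups was 0.19 for Nap1l4, 0.13 for Cd81 and 0.19 for Tssc4. It was smaller than that in 23.7%, 8.43% and 13.2% of genes in the same range of levels (100 to 500 CPM for Nap1l4 and Cd81, 20 to 100 CPM for Tssc4).

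**Figure D3:**
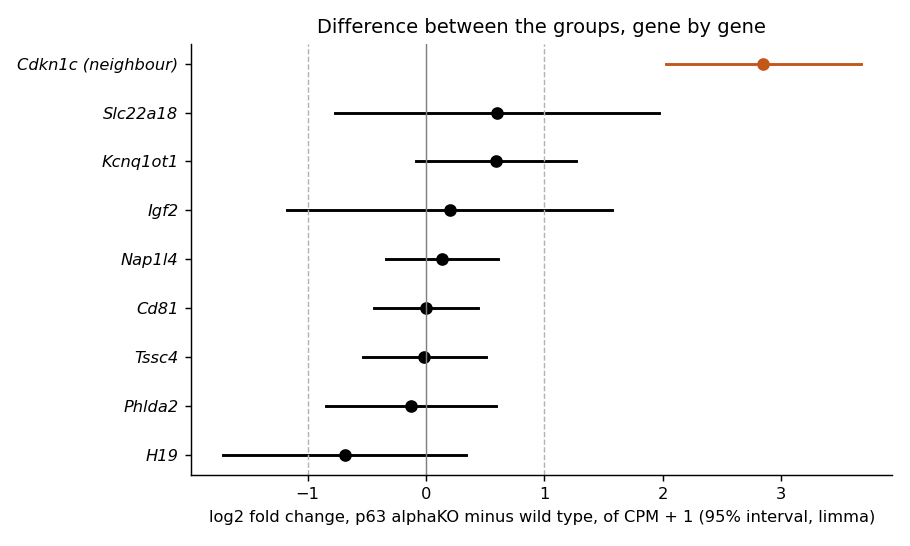
Log2 fold change of CPM + 1, p63 alphaKO minus wild type, on the horizontal axis, with a 95% interval from limma, for the 8 cluster genes tested and Cdkn1c; dashed lines mark a 2-fold change either way. Intervals of Phlda2, Nap1l4, Cd81 and Tssc4 stay inside the dashed lines, and that of Cdkn1c (2.02 to 3.67) lies above all others.

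Cdkn1c, one of the 0.0341% of tested genes called higher in p63 alphaKO (4 genes), stood above its neighbours. Its log2 fold change was 2.85 (SE 0.39, 95% interval 2.02 to 3.67, limma adjusted p = 0.00686), and the upper bound nearest to it among the 8 genes was 1.96, that of Slc22a18. Its exons share 625 bases with the antisense model Gm44732, whose reads cannot be told apart without strand. Cdkn1c was not called without p63 alphaKO replicate 9 (limma adjusted p = 0.0661), without a filter on low values (0.0522) or without a mean-variance trend (0.169). Within libraries, the ratio of Cdkn1c to each of the 8 genes kept the groups apart for 7 of them and overlapped for Igf2. Each of those 7 had p = 0.1 by an exact two-sided permutation test, which is the smallest possible and 0.143 when adjusted over the 10 ratios computed. The ratios share Cdkn1c, so they are not separate tests. Cdkn1c alone kept the groups apart, as did 11.5% of all genes tested. It had been named from earlier results of these data, so this separation describes that choice.

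The groups also overlapped for the other tested genes of the cluster, Cdkn1c apart, where they did not overlap for 11.5% of all genes tested. Of 17 further genes looked up, Cdkn1c included, 15 were listed and 9 tested. Of these 9, Cdkn1c passed, 0 fell, and 8 did not pass, with a median log2 fold change of -0.07. Igf2os, Ins2, Th, Trpm5 and Tspan32 were listed at 0 in every library. Ascl2, a transcription factor gene of the placenta, was at 0.94, 1.87 and 2.54 CPM in wild type cultures, compared with 2.28, 0.33 and 0.59 CPM in p63 alphaKO (limma adjusted p = 0.941). By position, 96 annotated genes start within 500 kb of the outermost of the 9 genes or between them. The table lists 61 of these, 31 with no read in any library, and 26 were tested. Without the 9 genes and Cdkn1c there were 17 tested, 5 higher and 12 lower, with a median of -0.31. Limma, edgeR and DESeq2 called 0 of them, and 3 had an unadjusted p under 0.05, beside 6.36% of all genes. Of those 3, Tnnt3 and Tnni2 encode troponins of fast muscle, and Tnnt3 was at 5.03, 15.54 and 110.22 CPM in wild type cultures, compared with 0.00, 4.67 and 15.87 CPM in p63 alphaKO. Both are among the 10 muscle markers given above, which were highest in wild type replicate 15, and the part of muscle cells was not tested. The other was Dusp8. Without wild type replicate 15 the log2 fold change of Tnnt3 moved from -2.29 to -1.13 and that of Tnni2 from -0.99 to -0.38. The count at an unadjusted p under 0.05 was then 1, of 18 nearby genes tested in that fit. The median of the genes near by moved to -0.04 without p63 alphaKO replicate 11 and to -0.22 without wild type replicate 15.

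**Figure D4:**
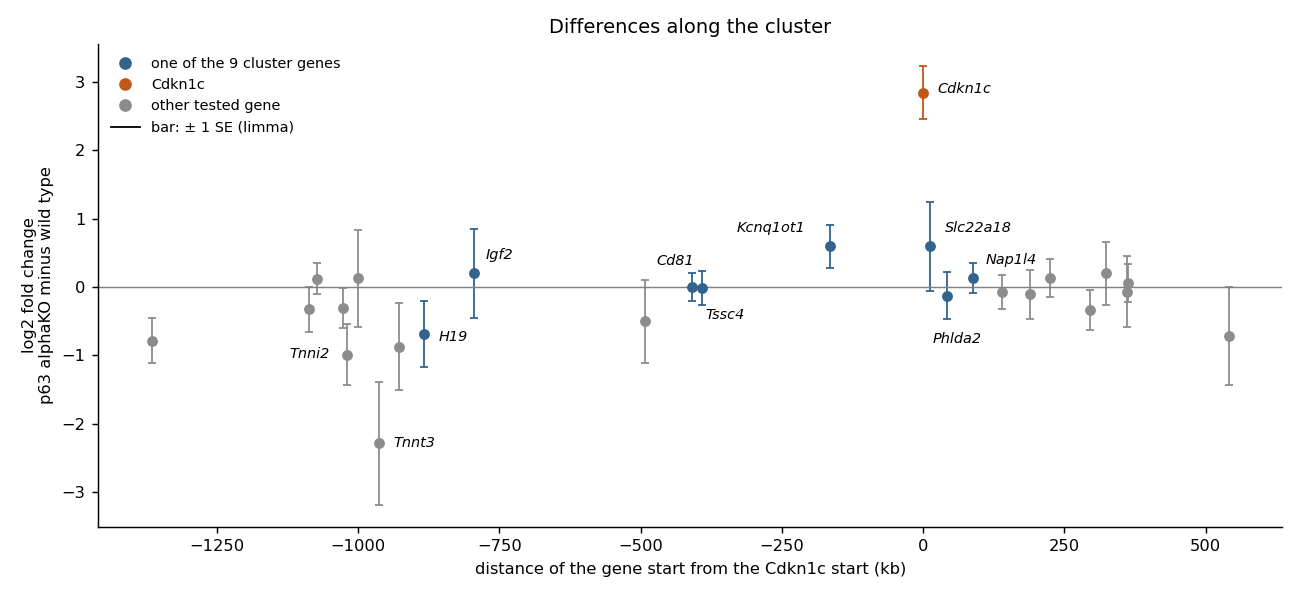
Log2 fold change, p63 alphaKO minus wild type (points, bars ± 1 SE from limma), of the 26 tested genes near the cluster against the distance in kb of their start from the Cdkn1c start. Cdkn1c stands at 2.85 while Slc22a18, Phlda2 and Nap1l4 on one side and Kcnq1ot1 on the other stand between -0.13 and 0.60.

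A further list held 16 genes that flank the cluster, chosen as not known to be imprinted, a status that was not checked here. Of these 15 were tested, 5 higher and 10 lower, with a median of -0.32. Limma, edgeR and DESeq2 called 0 of them, and 4 had an unadjusted p under 0.05, beside 6.36% over all genes. The smallest p belonged to Ano1, a calcium-activated chloride channel gene, at 21.99, 28.91 and 27.64 CPM in wild type cultures, compared with 17.81, 16.66 and 5.88 CPM in p63 alphaKO (limma adjusted p = 0.729). Its log2 fold change was -1.04, and -0.57 without p63 alphaKO replicate 11, in which it was lowest. Tnnt3 came next (0.736), then the phosphatase gene Dusp8 (0.758).

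Imprinted genes elsewhere in the genome did not pass either. Of 50 looked up, 48 were listed and 28 tested, 16 higher and 12 lower, with a median of 0.15 and 0 called by limma, edgeR or DESeq2 (2 at an unadjusted p under 0.05, 6.36% over all genes). The groups did not overlap for 3 of the 28, beside 11.5% of all genes. Mkrn3 was 1 of these 3, with 0 reads in wild type and 12 in p63 alphaKO, and reached the filter only through p63 alphaKO. Leaving out wild type replicate 15 gave a median of 0.02, and leaving out p63 alphaKO replicate 11 gave 0.04. Zrsr1, a paternally read gene for a splicing factor, was at 15.08, 13.06 and 21.28 CPM in wild type cultures, compared with 29.68, 23.33 and 37.62 CPM in p63 alphaKO (limma adjusted p = 0.729). Inpp5f, an inositol phosphatase gene, was at 15.08, 5.60 and 8.89 CPM and at 19.18, 15.00 and 17.63 CPM (0.767). Mkrn3 was listed at 0 in every wild type culture, compared with 0.46, 1.00 and 4.70 CPM in p63 alphaKO (0.795), and its mean was under the filter without p63 alphaKO replicate 11.

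Igf2 acts through the receptors Igf1r and Insr, is cleared by Igf2r, and is bound by a family of secreted proteins. Of 29 genes of this axis, 22 were tested, 7 higher and 15 lower, with a median of -0.14 and 0 called by limma, edgeR or DESeq2 (4 at an unadjusted p under 0.05). The groups did not overlap for 4 of the 22, beside 11.5% of all genes, and 6.36% of all genes had an unadjusted p under 0.05. The direction turned without p63 alphaKO replicate 11, with 12 higher, 10 lower and a median of 0.08. Without wild type replicate 15 there were 3 higher and 19 lower, with a median of -0.19, 0 called and 6 at an unadjusted p under 0.05. Igfbp4, a secreted binding protein, was at 20.74, 12.75 and 12.39 CPM in wild type cultures, compared with 31.97, 44.65 and 34.09 CPM in p63 alphaKO, a log2 fold change of 1.24 (SE 0.31, limma adjusted p = 0.377). Igfbp2 was at 67.24, 50.98 and 30.81 CPM and at 23.75, 44.65 and 14.11 CPM (0.758). The log2 fold change of Igfbp2 was -0.91, -0.52 without p63 alphaKO replicate 11 and -1.21 without wild type replicate 15. Irs1, an adaptor of the receptors, was at 13.51, 9.95 and 7.62 CPM and at 6.85, 4.33 and 3.53 CPM (0.767).

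The proteins that read or keep these imprints include CTCF, which binds the control region next to H19, the DNA methyltransferases, and Polycomb and G9a complexes recruited by Kcnq1ot1. Of 23 such genes, 22 were tested, 5 higher and 17 lower, with a median of -0.19 and 0 called by limma, edgeR or DESeq2 (1 at an unadjusted p under 0.05, 6.36% over all genes). Without p63 alphaKO replicate 11 there were 9 higher and 13 lower, with a median of -0.06. Without wild type replicate 15 there were 3 higher and 19 lower, with a median of -0.17. Hnrnpk, an RNA-binding protein that links such noncoding RNAs to Polycomb, was at 377.67, 444.22 and 402.46 CPM in wild type cultures, compared with 281.76, 281.92 and 307.40 CPM in p63 alphaKO. Its log2 fold change was -0.49 (SE 0.20, limma adjusted p = 0.758). The groups did not overlap for 2 of the 22, Hnrnpk and Suz12, beside 11.5% of all genes. Suz12, a Polycomb subunit, was at 134.48, 129.32 and 137.22 CPM and at 115.99, 128.97 and 50.55 CPM (0.816). Its log2 fold change of -0.55 rested on p63 alphaKO replicate 11 and was -0.13 without it. Uhrf1, which guides maintenance of DNA methylation, was at 7.54, 12.12 and 20.01 CPM and at 9.13, 9.33 and 4.70 CPM (0.865). Its log2 fold change was -0.66, -0.33 with wild type replicate 15 left out, and -0.38 with p63 alphaKO replicate 11 left out.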

How the data were processed

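RNA of 6 keratinocyte cultures was measured by 3' digital gene expression. The submitters' processing notes list STAR, HTSeq and mm10 without roles or versions. The authors deposited 1 table of CPM with 2 decimals and columns adding up to 999047 to 999508. The worth of 1 read was found per library, and 100% of values came out as whole reads to within 0.1, giving 1699716 to 3215333 reads per library. Intervals on reads cover counting error alone.

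The 11716 genes whose mean reached 1 CPM were tested. The test was limma (3.58.1, R 4.3.3), trended and two-sided, on log2(CPM + 1), adjusted by Benjamini-Hochberg over all of them, threshold 0.05. This scale understates the change of low genes. edgeR 4.0.16 and DESeq2 1.42.0 were run on the recovered reads as alternatives, and the script was tested on simulated data.

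The 9 genes, the gene lists and some alternatives were chosen with earlier results of these data known. Named from other lists were genes past the threshold, or else the 3 of smallest p. Ascl2, Tnni2 and genes listed at 0 were added after their values were seen. Markers were named to identify their lists, not by this rule. Fits of the other lists without wild type replicate 15 or p63 alphaKO replicate 11 were added after seeing the data. For the 2 genes with the largest absolute log2 fold change, the 3 most correlated genes were named. Positions and exons are from GENCODE vM21 (GRCm38).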

Additional observations from a re-analysis of the deposited data

How the results depend on the processing

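No paired analysis was possible because the groups share no replicate numbers. Over 17 alternatives, 0 of the 9 genes were called in any, and the median log2 fold change of those tested ranged from -0.02 to 0.16. Kcnq1ot1 stayed above 0 (0.30 to 0.98), as did Nap1l4 (0.02 to 0.32), and Phlda2 below 0 (-0.36 to -0.02). Cd81 turned to -0.0195 under TMM scaling, -0.0125 by edgeR and -0.00505 by DESeq2. Leaving out 1 library in turn gave -0.0660 to 0.0969 for Cd81, which was below 0 in 4 of the 6 fits, -0.0927 to 0.131 for Tssc4, -0.105 to 0.534 for Igf2, -0.0245 to 1.30 for Slc22a18 and -1.33 to 0.0594 for H19. Tssc4 turned without wild type replicate 14 or replicate 15 and when p63 alphaKO replicate 10 was left out, Igf2 without wild type replicate 15, Slc22a18 without p63 alphaKO replicate 9 and H19 without p63 alphaKO replicate 11. The cause of these turns was not tested. The count tools moved H19 to -0.351 (edgeR) and -0.364 (DESeq2), Slc22a18 to 1.30 and 1.35, and Igf2 to 0.473 and 0.506, each over 1.5 times from the limma value. Igf2 and Slc22a18 have no value at a minimum mean of 5 CPM, and Igf2 none without p63 alphaKO replicate 9.

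Of the further cluster genes, Cdkn1c was the 1 called, and 0 were called with no filter on low values or no trend. Leaving out 1 library gave 0 to 1, with 0 without p63 alphaKO replicate 9. Over all genes, 5 were called. There were 2 with a pseudocount of 0.5 CPM, 3 with 5 CPM, 1 with no filter, 2 at a minimum mean of 5 CPM, 0 with no trend, 2 by edgeR and 15 by DESeq2. Leaving out 1 library gave 2 (without wild type replicate 13, and likewise 14) to 13 (without p63 alphaKO replicate 11). The count was 3 with p63 alphaKO replicate 10 left out. Leaving out wild type replicate 15 and p63 alphaKO replicate 11 together gave 48. The cause of these differences was not tested. With 1 to 16 reads per library, depth limits what Igf2 and Slc22a18 can show.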
